A study of Mus musculus with 9 samples.

Results

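Cytosolic ribosomal protein genes were examined in whole osteosarcomas (bone tumors) of genetically engineered mice by RNA-Seq. The members are the protein-coding rows of the deposited table whose symbol is that of a large-subunit (Rpl), P-stalk (Rplp) or small-subunit (Rps) protein, together with Rpsa. This rule took 83 of the 55367 genes in the table, of which 43 belong to the large subunit, 3 to the P stalk and 31 to the small subunit, and 6 are paralogs (Rpl3l, Rpl7l1, Rpl10l, Rpl22l1, Rpl39l and Rps27l). Fau, which encodes a ribosomal protein fused to a ubiquitin-like protein, does not match the rule and is given apart.

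The p53 driven group held 4 tumors (F187, F325, F331 and F368) from mice labelled Col2.3-Cre/TrpP53fl/+. The Myc knockin group held 5 tumors (M351, M408, M9, M624 and M664) from mice that also carry a Lox-Stop-Lox (LSL) allele of c-Myc with the T58A change, over the same p53fl/+. Both groups thus share Cre, driven by the osteoblast promoter Col2.3, and 1 floxed copy of the p53 gene. The tumors were spontaneous and were sequenced whole, with stroma and blood, each is a separate replicate, and ages were not used here.

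Ribosomal proteins assemble with ribosomal RNA in the nucleolus into a small subunit, which decodes the messenger RNA, and a large subunit, which joins the amino acids. A stalk of acidic P proteins on the large subunit recruits translation factors. Most of these genes are expressed in every cell, and their messenger RNAs begin with a pyrimidine tract (a terminal oligopyrimidine or TOP motif) through which mTOR and Larp1 control their translation. MYC is known for driving ribosome production, and Rpl5 and Rpl11, together with 5S ribosomal RNA, bind Mdm2 and so stabilize p53 when ribosome assembly is disturbed.

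Levels are given as CPM, counts scaled to a common library size after TMM normalization. Total counts ranged from 2716322 to 17073285 per tumor. A set of 12 satellite-repeat genes took 44.3%, 67.9%, 23.2% and 81% of the counts of F187, M351, M408 and M9, and at most 0.0242% elsewhere. M624 and M664 stood apart: Rn7sk, a small nuclear RNA without a poly(A) tail, had 3.47 and 6.35 CPM there and 6545 to 10667 CPM in the other 7 libraries. Both are Myc knockin tumors, so between this pair and the p53 driven tumors genotype and this library difference cannot be told apart. M351, M408 and M9 are of the same group but do not share the low Rn7sk. Results are given with and without this pair. Myc, the targeted gene, had 43.5 to 67.1 CPM in the p53 driven and 144 to 1045 CPM in the Myc knockin tumors (log2 fold change 3.41, edgeR adjusted p = 0.0217, and 2.60 without the pair, edgeR adjusted p = 0.0300).

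The sequence around the start of these genes was read from RefSeq (build GRCm38.p6, 250 bases before to 50 after the annotated start), which matched 63 of the 83 genes by symbol. A run of at least 8 pyrimidines on the coding strand, within 30 bases of the start, was present in 55.6% of them and in 25.6% of 16802 protein-coding genes. CCGGAA on either strand, which holds the core of ETS-family sites, was present in 55.6% and 21.3%. CACGTG, the E-box that MYC with MAX can bind, was present in 9.52% and 9.16%. AAGATGG on either strand stood in 15.9% and 7.21%, and TATAAA on either strand in 11.1% and 14.5%. Overlap between motifs was not examined, and a match says only that these letters are in the window.

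Windows from 40 bases before to 30 bases after the annotated start are shown for 4 genes that were higher in every Myc knockin tumor (Rpl11, Rpl5, Rps15a and Rps13), for Rps2, which was high in M624 and M664 alone, and for Rpl37, which was low there. Capitals mark pyrimidine runs of at least 8 bases and CCGGAA.
Rpl11, chr4:136053364-136053433, minus strand: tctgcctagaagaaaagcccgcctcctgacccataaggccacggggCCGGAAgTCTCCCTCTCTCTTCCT
Rpl5, chr5:107900488-107900557, plus strand: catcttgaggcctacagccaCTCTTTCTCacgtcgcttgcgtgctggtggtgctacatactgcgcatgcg
Rps15a, chr7:118116118-118116187, minus strand: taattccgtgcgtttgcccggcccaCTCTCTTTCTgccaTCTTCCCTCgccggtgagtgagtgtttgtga
Rps13, chr7:116334161-116334230, minus strand: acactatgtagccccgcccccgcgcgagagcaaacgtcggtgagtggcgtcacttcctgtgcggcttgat
Rps2, chr17:24720023-24720092, plus strand: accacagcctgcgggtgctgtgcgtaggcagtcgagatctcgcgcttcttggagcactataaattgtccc
Rpl37, chr15:5116573-5116642, plus strand: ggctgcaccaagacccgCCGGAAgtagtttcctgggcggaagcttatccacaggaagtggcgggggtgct
The longest run of Rpl11 has 17 bases within the window and reaches its last base, so it may be longer. That of Rpl5 has 9 bases and that of Rps15a 10. No run of 8 or more stood in the windows of Rps13, Rps2 and Rpl37, and only Rpl11 and Rpl37 held CCGGAA.

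Summed over the 83 genes, ribosomal protein messenger RNA was higher in 4 of the 5 Myc knockin tumors than in any p53 driven tumor. The sum was 3701, 5373, 5748 and 4945 CPM in F187, F325, F331 and F368. In M351, M408, M9, M624 and M664 it was 9030.0, 9594, 4555, 25717 and 27384 CPM. M9 lay inside the p53 driven range, and M624 and M664 lay far above all others. Means were 15256 ± 10510.0 CPM (SD, n = 5) and 4942 ± 889.9 CPM (SD, n = 4), a 3.09-fold difference. Without the pair the Myc knockin mean was 7726 ± 2761 CPM (SD, n = 3), 1.56-fold the p53 driven mean.

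The denominator decides where M9 stands. As a share of the counts outside the satellite genes, the members held 0.556, 0.652, 0.700 and 0.594% in F187, F325, F331 and F368. In M351, M408, M9, M624 and M664 they held 1.68, 1.59, 0.851, 3.95 and 4.02%, so every Myc knockin tumor lay above every p53 driven tumor. This denominator places genes in general higher in the Myc knockin tumors, with a positive median log2 fold change of all genes, given below. As a share of all counts, M9 was the lowest of the 9 with 0.162%.

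**Figure D1:**
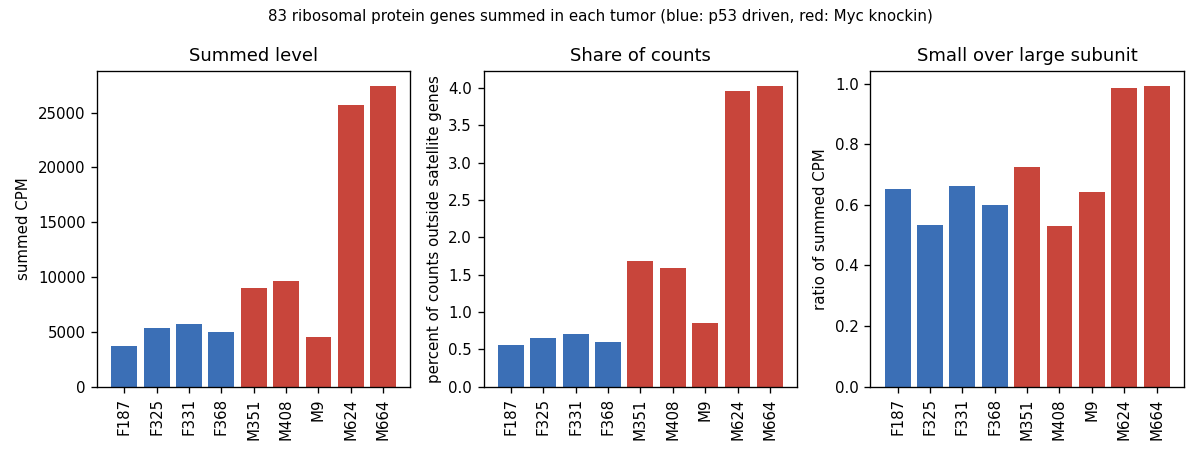
Bars give for each tumor the summed CPM of the 83 ribosomal protein genes, their percent of the counts outside satellite genes, and the ratio of summed small-subunit to large-subunit level. M624 and M664 are the highest bars in each panel, and M9 lies within the p53 driven range in the first panel but above it, at 0.851%, in the second.

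Gene by gene, 78 of the 81 members that passed the filter on low counts had a positive log2 fold change, and only Rps28, Rpl37 and Rpl41 a negative one. The median was 1.49 for the members and 0.14 for all 15365 genes tested. Genes were called where the adjusted p of edgeR's quasi-likelihood test (Benjamini-Hochberg over all genes tested) was under 0.05 and the fold over 1.5. By this rule 4 of the 81 members (4.94%) rose, among them Rpl23a, Rps13 and Rps15a, against 2.26% of all genes, and none fell. An unadjusted p under 0.05 was reached by 61 members and by 26.8% of all genes.

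How many members were called depended on single tumors and on the method. Without M9 the number was 42 of 82 (51.2%), against 6.03% of all genes. It was 10 without M408, 1 without M351, and 0 without any one of F187, F325, F331, F368, M624 and M664. Over all genes, 417 of 15472 were called higher without M408 and 178 of 15206 without M351. The numbers were 133 of 16494 without F187, 162 of 14299 without M624 and 272 of 14334 without M664. Without F325, F331 or F368 at most 2 genes of the whole table were called higher. DESeq2 called 54 of the 80 members to which it gave an adjusted p (67.5%), against 10.8% of all genes. With the counts outside the satellite genes as library size, 55 of 82 members (67.1%) were called higher, against 11.0% of all genes, and the median of all genes was 0.63. With the 4 libraries rich in satellite reads left out, F325, F331 and F368 against M624 and M664 gave 60 of 82 members (73.2%), against 15.7% of all genes.

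Without M624 and M664, 73 of the 77 members tested had a positive log2 fold change, with a median of 0.69 against 0.078 over all 14308 genes. The Myc knockin tumors left here, M351, M408 and M9, are all rich in satellite reads, while among the p53 driven tumors only F187 is. Genotype and satellite content can thus hardly be told apart in this comparison either. Of the 77 members 2 (2.60%) were called higher, Rpl11 among them, against 1.80% of all genes. An unadjusted p under 0.05 was reached by 24 of the 77 and by 25.7% of all genes. With the counts outside the satellite genes as library size, 32 of 79 members (40.5%) were called higher, against 9.03% of all genes, with medians of 1.20 for the members and 0.70 for all genes. With total library size, none was called, 33 of the 77 had a negative log2 fold change, and the medians were 0.078 and -0.55. The median of the members lay above that of all genes on each of these scales. With 1 more tumor left out, 4 members were called without M9, 1 without F187 and 0 without F325, F331, F368, M351 or M408, and the median was 0.35 without M408. Of all genes, 1.85% were called higher without M9, 4.46% without F187, and 0 without F325, F331, F368, M351 or M408.

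**Figure D2:**
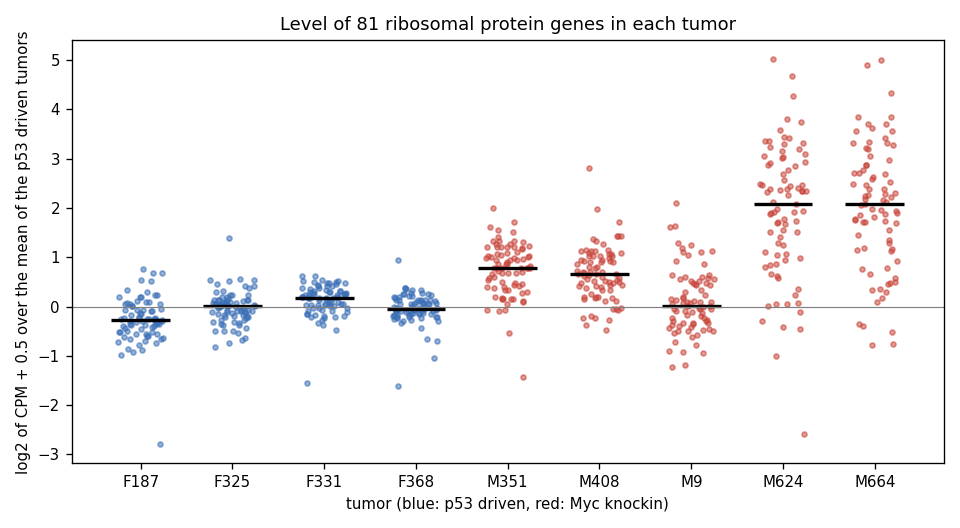
Each point is 1 of the 81 tested ribosomal protein genes in 1 tumor, as log2 of its CPM + 0.5 over the mean of the 4 p53 driven tumors, and lines mark medians. The points of M624 and M664 spread over the widest range, and those of M9 lie nearest to the p53 driven tumors among the Myc knockin tumors.

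The Myc knockin tumors differed in how many members lay high. M351 lay above every p53 driven tumor for 64 of the 81 members, M408 for 52, M9 for 28, M624 for 68 and M664 for 72. Over all genes tested the shares were 33.2% in M351, 28.6% in M408, 34.8% in M9, 37.9% in M624 and 33.3% in M664. M9 was thus close to its background and the others were above theirs.

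All 5 Myc knockin tumors lay above all 4 p53 driven tumors for 16 of the 81 members (19.8%), against 5.41% of all genes tested, and below them for none. Among them were Rpl5, Rpl6, Rpl8, Rpl11, Rpl12, Rpl22, Rpl23a and Rpl28 of the large subunit and Rps12, Rps13, Rps15a, Rps19, Rps20, Rps27a and Rps29 of the small subunit. Without the pair the groups did not overlap for 16 of 77 members (20.8%), against 9.11% of all genes.

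Reads also fell on genes that bone tumors should hardly express. The 1821 chemosensory receptor genes had 1.24 counts per kb of exon in M9, 1.12 in M351, 0.710 in F187, 0.151 in M408, and at most 0.0421 in the others. Spread evenly by exon length, such a background would give a median of 7.22% of a member's counts in M9, 3.91% in M351 and 2.93% in F187. With it taken off, 11 of the 16 members still did not overlap, and Rpl12, Rpl28, Rps12, Rps15a and Rps27a did.

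Among the large-subunit genes, 40 of 42 tested had a positive log2 fold change, with a median of 1.37, and of 0.59 without the pair. Rpl23a (ENSMUSG00000058546), which sits at the exit of the peptide tunnel, had the lowest adjusted p of the members and few reads. Its counts were 1, 4, 9 and 6 in F187, F325, F331 and F368, and 6, 20, 5, 140 and 129 in M351, M408, M9, M624 and M664. On the CPM scale the groups spanned 0.311 to 0.778 and 3.66 to 5.57 and did not overlap. edgeR gave a log2 fold change of 2.96 (SE 0.60, edgeR adjusted p = 0.0266), and the gene did not pass the filter without the pair. Even background reads would give 60.2% of its counts in F187, and its named copies held 9290 counts over the 9 tumors against 320 on the gene.

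Rpl11 and Rpl5, which bind Mdm2, were higher in each Myc knockin tumor, and M624 and M664 lay at or below the level of M351, M408 and M9 or among them. Rpl11 had 7.90, 12.5, 12.7 and 16.3 CPM in F187, F325, F331 and F368. Across M351, M408, M9, M624 and M664 it had 41.9, 23.4, 27.1, 22.4 and 23.8 CPM, highest in M351. The difference on the log2 scale was 1.14 (SE 0.31, edgeR adjusted p = 0.0564), and 1.35 without the pair (SE 0.30, edgeR adjusted p = 0.0446).

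Rpl5 had 4.34, 8.95, 11.9 and 11.1 CPM in F187, F325, F331 and F368. Set beside these, M351, M408, M9, M624 and M664 had 20.9, 19.4, 19.1, 16.9 and 13.1 CPM. M664 was nearest to the p53 driven tumors, and the groups did not overlap. A log2 fold change of 0.95 (SE 0.34, edgeR adjusted p = 0.110), or of 1.16 without the pair (SE 0.33, edgeR adjusted p = 0.0758), did not pass. Even background reads would give 20.3% of its counts in M9, 12.9% in M351 and 25.3% in F187.

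Rpl23, another large-subunit protein known to bind Mdm2, had 56 to 78.5 CPM in the p53 driven tumors. In M351, M408, M9, M624 and M664 it had 129, 146, 35.1, 61.2 and 51.9 CPM, above all p53 driven tumors only in M351 and M408. On the log2 scale the difference was 0.36 (edgeR adjusted p = 0.611).

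Rpl36, Rpl18 and Rpl29 of the large subunit had their highest levels in M624 and M664. Rpl36 had 5.92, 7.31, 7.35 and 8.51 CPM in F187, F325, F331 and F368. Its level in M351, M408, M9, M624 and M664 was 6.77, 5.13, 5.58, 199 and 249.6 CPM. Outside the pair the groups overlapped, and the pair averaged 33.7 times the other 7. The log2 fold change of 3.69 (SE 1.20, edgeR adjusted p = 0.0855) became -0.28 without the pair (edgeR adjusted p = 0.618).

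Rpl18 had 16.9 to 21.3 CPM in the p53 driven tumors, 43.7, 36.4 and 19.9 CPM in M351, M408 and M9, and 371 and 385 CPM in the pair. Its log2 fold change was 3.21 (edgeR adjusted p = 0.0565), and 0.91 without the pair (edgeR adjusted p = 0.0958). Rpl29 had 24.6 to 56 CPM in 7 tumors and 489 and 471 CPM in M624 and M664, with log2 fold changes of 2.58 (edgeR adjusted p = 0.107) and 0.080 (edgeR adjusted p = 0.905). M9 lay within the p53 driven range for Rpl18 and below it for Rpl29.

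Other large-subunit genes were no higher in the pair. Rpl37 had 16.6, 18, 31.4 and 22.1 CPM in F187, F325, F331 and F368. Across M351, M408, M9, M624 and M664 it had 22.8, 21.2, 33.5, 10.8 and 12.7 CPM, so that the pair lay below the other 7. The fitted log2 difference was -0.16 (edgeR adjusted p = 0.817), and 0.26 without the pair (edgeR adjusted p = 0.598). Rpl13 was the other tested member with this order, with 30.1 and 31.7 CPM in the pair and 38.7 to 109 CPM in the rest.

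Rpl41, which encodes the smallest ribosomal protein, had 199.86, 404, 477 and 297 CPM in F187, F325, F331 and F368. Set beside these, M351, M408, M9, M624 and M664 had 373, 291, 272, 347 and 389 CPM, inside the p53 driven range throughout, with a log2 fold change of -0.043 (edgeR adjusted p = 0.949). Per kb of exon its mean level in the p53 driven tumors, 295 CPM per kb, was the highest of the tested members, with Rpl4 next at 291, and Rps13 the lowest at 0.551. In the Myc knockin tumors Rpl41 had 286 CPM per kb and Rpl4 719.6, while Rplp1 led with 889. The exon length joins all annotated exons of a gene. It was 2.691 kb for Rps13 and 1.168 kb for Rpl41, whose median-length coding transcripts have 1317 and 544 bases. Reads on copies are not counted either, so this order is not one of messenger RNA amount alone. Rpl35 and Rpl35a each had a log2 fold change of 0.17 (edgeR adjusted p = 0.685 for both at this rounding). Rpl13a had 13 to 25 CPM in the p53 driven and 15.1 to 56.8 CPM in the Myc knockin tumors, with a log2 fold change of 1.05 (edgeR adjusted p = 0.107).

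The P stalk consists of Rplp0, which anchors it, and Rplp1 and Rplp2. Rplp0 had 289.5, 392, 466 and 429.6 CPM in F187, F325, F331 and F368. In M351, M408, M9, M624 and M664 it had 682, 592, 359, 2012 and 2585 CPM, with M9 inside the p53 driven range. The difference of 1.66 on the log2 scale (edgeR adjusted p = 0.111) was 0.52 without the pair (edgeR adjusted p = 0.334). Rplp2 had 12 to 16.3 CPM in the p53 driven tumors, 24, 29.3 and 14.3 CPM in M351, M408 and M9, and 198 and 173 CPM in the pair, with an edgeR adjusted p of 0.0610. Stalk genes made up 11.7 and 14.2% of the summed level in M624 and M664 and 7.73 to 10.2% in the other 7 tumors.

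**Figure D3:**
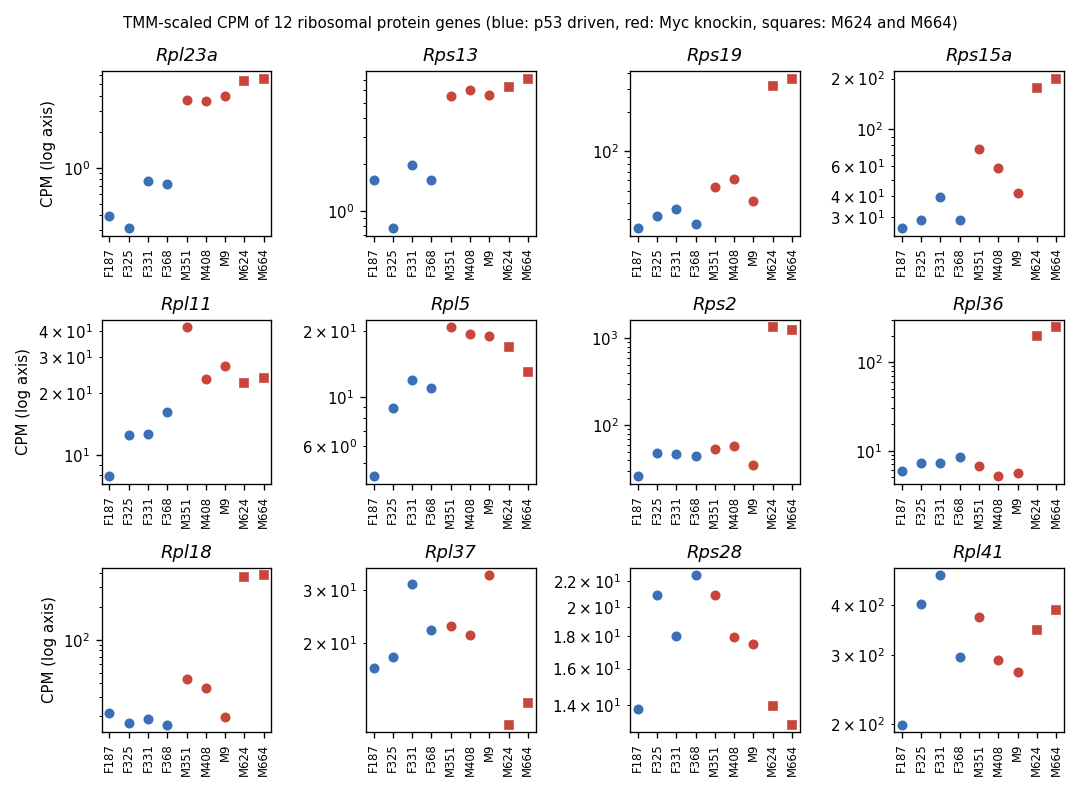
Each panel shows 1 ribosomal protein gene, with CPM on a log axis in the p53 driven (blue) and Myc knockin (red) tumors, and squares for M624 and M664. Rpl11 and Rpl5 are higher in all 5 Myc knockin tumors, while Rps2 and Rpl36 are high in the squares alone.

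Among the small-subunit genes, 30 of 31 tested had a positive log2 fold change, with a median of 1.63, and of 0.74 without the pair, where 29 of 29 were positive. Rps15a (ENSMUSG00000008683, mm10 chromosome 7, 118104372 to 118116188) had 25.7, 28.6, 39.4 and 28.8 CPM in F187, F325, F331 and F368. Its level in M351, M408, M9, M624 and M664 was 76.3, 58.6, 41.4, 175 and 199 CPM. M9 exceeded F331 by little, and with even background reads taken off it had 35.2 CPM, below F331. On the log2 scale the fold change was 1.85 (SE 0.47, edgeR adjusted p = 0.0473), and 1.00 without the pair (edgeR adjusted p = 0.0698).

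Rps13 (ENSMUSG00000090862, mm10 chromosome 7, 116331505 to 116334195) was called from few reads. Its counts were 4, 10, 23 and 13 in F187, F325, F331 and F368, and 9, 33, 7, 166 and 165 in M351, M408, M9, M624 and M664. On the CPM scale the groups spanned 0.778 to 1.99 and 5.54 to 7.12, without overlap and with the pair close to the other 3. edgeR gave a log2 fold change of 2.05 (SE 0.49, edgeR adjusted p = 0.0400), and 2.01 without the pair (edgeR adjusted p = 0.0717). Even background reads would give 47.7% of its counts in M9, 33.6% in M351 and 47.8% in F187, and taking them off left 2.91 CPM in M9, still above the p53 driven maximum of 1.98 CPM.

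Rps2, a protein of the messenger RNA entry channel, had the largest log2 fold change of the tested members. It had 26.1, 48.6, 46.6 and 44.3 CPM in F187, F325, F331 and F368. Across M351, M408, M9, M624 and M664 it had 54.2, 58.4, 35.1, 1349.6 and 1248 CPM. The other 7 tumors overlapped whatever their genotype, and the pair averaged 29 times their mean. The log2 fold change of 3.73 (SE 1.16, edgeR adjusted p = 0.0757) became 0.32 without the pair (edgeR adjusted p = 0.511).

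Rps19, often mutated in Diamond-Blackfan anemia, had 25.7 to 35.7 CPM in the p53 driven tumors. Set beside these, M351, M408, M9, M624 and M664 had 53.6, 61.7, 41.4, 316 and 361 CPM. The groups did not overlap, but neither the log2 fold change of 2.47 (edgeR adjusted p = 0.0574) nor that of 0.85 without the pair (edgeR adjusted p = 0.0744) passed.

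Rps14, whose loss is tied to the anemia of 5q deletions, had 75.5 to 125 CPM in the p53 driven tumors, 242, 168 and 82.9 CPM in M351, M408 and M9, and 939 and 1217 CPM in the pair (log2 fold change 2.37, edgeR adjusted p = 0.0773). Rpsa, also known as a laminin receptor, had 66.8 to 146 CPM, 217, 207 and 93.2 CPM and 1098 and 1311 CPM in the same order (log2 fold change 2.54, edgeR adjusted p = 0.0711). Both overlapped between the groups in M9. Rps6, the substrate of S6 kinase, had 5.45 to 7.17 CPM in the p53 driven and 2.39 to 25.1 CPM in the Myc knockin tumors, lowest in M9 (log2 fold change 1.26, edgeR adjusted p = 0.161). The M9 value of Rps6 rests on 3 counts, and even background reads would give 65.7% of them. Rps28 had 13.8 to 22.5 CPM and 13 to 20.9 CPM (log2 fold change -0.19, edgeR adjusted p = 0.695).

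The balance between the subunits differed in the pair. Summed small-subunit over summed large-subunit and P-stalk level was 0.652, 0.533, 0.661 and 0.599 in F187, F325, F331 and F368. In M351, M408, M9, M624 and M664 it was 0.724, 0.532, 0.643, 0.986 and 0.991. Outside the pair the groups overlapped, and the pair lay above all 7.

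M624 and M664 were both above the other 7 tumors for 59 of the 81 members (72.8%), against 17.4% of all genes tested, and averaged at least 8 times their level for 14. For 13 members the pair was within 1.5 times of the other 7, among them Rpl5, Rpl11, Rpl35, Rpl39, Rpl41 and Rps21. Across the members, Spearman's rho of levels was 0.978 between M624 and M664, 0.823 to 0.880 between the pair and the other 7, and 0.924 to 0.981 between p53 driven tumors and the other 3 Myc knockin tumors. These are descriptions across genes, which are not independent replicates. Over the 81 tested genes the log2 ratio of the pair to the other 7 had a rho of 0.249 with transcript GC content, -0.00251 with transcript length and 0.409 with mean CPM, which contains the pair.

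**Figure D4:**
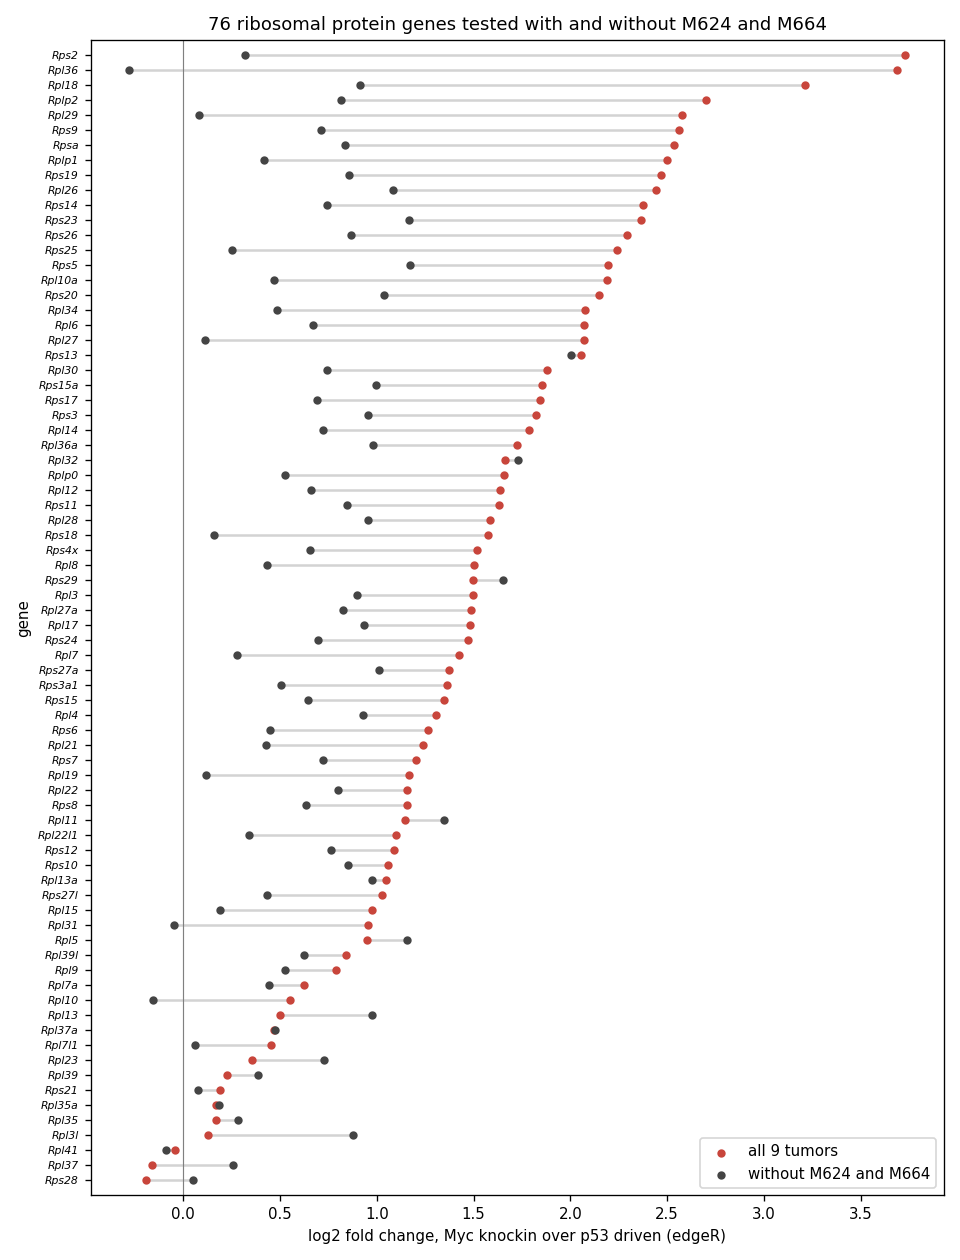
Log2 fold changes of Myc knockin over p53 driven tumors from edgeR, for the ribosomal protein genes shown, each tested both ways, over all 9 tumors (red) and without M624 and M664 (dark grey). Most red points lie to the right of their grey partner, and those of Rpl11, Rpl5 and Rps13 lie close to it.

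M408 stood out in Rpl32, a large-subunit gene named after its values were seen. It had 1544 CPM in M408, 375 CPM in M351, 116 CPM in M9, 643 and 771 CPM in the pair and 192 to 261 CPM in the p53 driven tumors. It made up 16.1% of the summed level in M408 and 2.50 to 5.57% elsewhere.

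Near-identical copies make single members uncertain. The table holds 320 named pseudogenes or retrogenes of ribosomal proteins, and 22 members had fewer counts than their copies. Rps27 had 243 counts over the 9 tumors and its copies 23704, while Rpl9 had 887 and its copies 12568. For each 100 counts on members, copies held 39.6 to 42.6 in the p53 driven and 34.5 to 44.5 in the Myc knockin tumors. With the copies' counts added to their member, 3 members were called, against 2.36% of all genes called higher, and the median log2 fold change was 1.56.

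Some paralogs can take the place of their parent gene in some tissues, and the ratio of each paralog to its parent was compared between the groups. Whether the proteins of a pair replace each other in the ribosome was not tested. Of 7 pairs, 6 had reads, and Rpl10l had none in any tumor. Rps4l, annotated as a transcribed pseudogene, is no member and was read only for its ratio to Rps4x. No pair passed in two-sided exact permutation tests over 126 arrangements, whose smallest p is 0.0159, and every p adjusted over the 6 pairs was 0.683. The groups overlapped in each pair.

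Rps27l, a known p53 target, had 22.5, 36.9, 31 and 20.2 CPM in F187, F325, F331 and F368. In M351, M408, M9, M624 and M664 it had 48, 40.3, 18.3, 79.5 and 93.8 CPM, with M9 below all p53 driven tumors. The log2 ratio to Rps27 was 3.92 ± 1.06 (SD, n = 5) against 3.63 ± 0.63 (SD, n = 4) for Myc knockin against p53 driven (exact permutation p = 0.651), and the difference of 0.28 was -0.37 without the pair. Rps27 had only 4 to 86 counts per tumor, while its copy Rps27rt had 169 to 9347. The size of this ratio thus does not show that Rps27l exceeds Rps27.

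Rpl7l1 had 52 to 64.3 CPM in the p53 driven tumors, 57.9 to 65.2 CPM in M351, M408 and M9, and 127 and 104 CPM in the pair. Its log2 ratio to Rpl7 was -2.21 ± 0.75 (SD, n = 5) against -1.51 ± 0.57 (SD, n = 4), in the same order (exact permutation p = 0.175). Rpl39l, known for its expression in testis, had a log2 ratio to Rpl39 of -0.77 ± 0.64 (SD, n = 5) against -1.75 ± 1.46 (SD, n = 4), lowest in F187 (exact permutation p = 0.254). For Rpl22l1 to Rpl22 the values were -4.57 ± 0.70 (SD, n = 5) against -4.35 ± 0.82 (SD, n = 4) (exact permutation p = 0.651). For Rps4l to Rps4x they were -2.44 ± 2.17 (SD, n = 5) against -3.09 ± 1.82 (SD, n = 4) (exact permutation p = 0.683).

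Rpl3l, the form of Rpl3 found in striated muscle, had 95 counts in F325, 24 in M408, 29 in M664, 11 in M9 and at most 6 in the others. The 6 skeletal muscle markers summed to 3726 CPM in F325, 1544 CPM in M408, 338 CPM in M664, 314 CPM in M9, 299.8 CPM in F368 and at most 59.7 CPM in the others, and their part in the Rpl3l values was not tested. The log2 ratio to Rpl3 was -6.34 ± 4.07 (SD, n = 5) against -4.45 ± 2.16 (SD, n = 4) (exact permutation p = 0.444). M624 had 0 counts of Rpl3l, so its log2 ratio of -12.85 was set by the 0.5 added to each count.

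**Figure D5:**
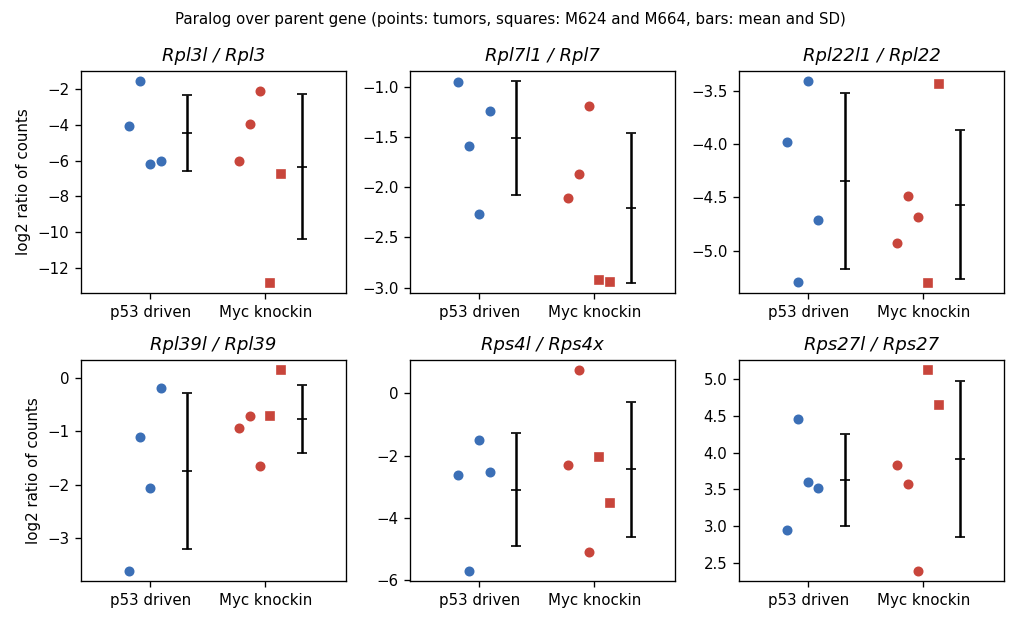
Each panel shows the log2 ratio of counts of a paralog to its parent gene in each tumor, with squares for M624 and M664 and the mean and SD of each group in black. The groups overlap in all 6 panels. Counts on copies of the parent gene are not included.

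Genes that work with the ribosomal proteins were read from 6 lists, beside a median log2 fold change of 0.14 and 2.26% called higher over all genes. Of 5 ribosomal proteins outside the rule none was called, with a median of 1.58. Fau had 1.58 to 2.37 CPM in the p53 driven tumors, 3.08, 1.65 and 1.59 CPM in M351, M408 and M9, and 12.5 and 14.1 CPM in the pair (log2 fold change 1.80, edgeR adjusted p = 0.147). Its reads were few, with 5, 9 and 2 counts in M351, M408 and M9, and it did not pass the filter without the pair. Only the pair was far above the p53 driven tumors. Rack1, a small-subunit scaffold, had a log2 fold change of 1.58 (edgeR adjusted p = 0.102).

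Of 16 other TOP messenger RNAs, 16 had a positive log2 fold change with a median of 1.29, and 2 rose, Npm1 and Hnrnpa1. Npm1, the nucleolar chaperone nucleophosmin, had 99.1, 175, 134 and 127 CPM in F187, F325, F331 and F368. Its level in M351, M408, M9, M624 and M664 was 723, 719.9, 433, 728 and 613 CPM, all above the p53 driven tumors, with the pair near M351 and M408. The log2 fold change was 2.27 (SE 0.33, edgeR adjusted p = 0.0160), and 2.29 without the pair (edgeR adjusted p = 0.0241). The elongation factors Eef1a1 (log2 fold change 1.44, edgeR adjusted p = 0.1498) and Eef2 (1.01, edgeR adjusted p = 0.234) did not pass.

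Of 13 chaperones of ribosomal proteins, Grwd1, which escorts Rpl3, rose (log2 fold change 2.60, edgeR adjusted p = 0.0260). Of 24 assembly factors of the large subunit, 5 rose (Wdr12, Nip7, Nop16, Nle1 and Mrto4), with a median of 1.09 over the list. Wdr12 had 10.1 to 16.3 CPM in the p53 driven and 27.9 to 87.1 CPM in the Myc knockin tumors, and Mrto4, the placeholder of the P stalk, 8.39 to 9.87 and 16.6 to 77.8 CPM. Of 20 assembly factors of the small subunit, 4 rose (Rcl1, Nob1, Rrp12 and Imp4), with a median of 0.87. Of 13 regulators of TOP messages none was called, with a median of -0.013, and Larp1 had a log2 fold change of 0.65 (edgeR adjusted p = 0.311). Ncl, the nucleolar protein nucleolin, had 255 to 374 CPM and 430.2 to 1443 CPM (log2 fold change 1.67, edgeR adjusted p = 0.0449). Over the 6 lists 12 of 89 genes rose and none fell, against 2.26% of all genes. Without the pair 4 of 88 rose, against 1.80%. The number was 31 of 89 without M9, against 6.03%, and 0 without F325, F331 or F368.

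Markers of cell types also differed between the tumors. The 7 osteoblast markers summed to 42453 to 95433 CPM in the p53 driven and 2239 to 24444 CPM in the Myc knockin tumors, and Bglap and Bglap2 fell. The 7 macrophage markers summed to 679 to 1228 and 199.97 to 679 CPM, and Cd68, Csf1r and Tyrobp fell. C1qa and C1qb, of the same list, had positive log2 fold changes of 0.17 and 0.56 (edgeR adjusted p = 0.875 and 0.593), with 172 and 202 CPM in M664 against at most 86.2 and 75 CPM in the p53 driven tumors. The 5 erythroid markers summed to 3.55 to 31.7 CPM in 7 tumors and 215 and 782 CPM in M624 and M664. The 5 lymphocyte markers summed to at most 17.9 CPM and the 5 testis germ cell markers to at most 12 CPM, and none of these 10 genes passed the filter. In whole tumors, fewer cells of a type and less RNA per cell cannot be told apart, and the part of these markers in the ribosomal protein values was not tested.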

How the data were processed

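RNA-Seq of 9 whole tumors was used. Per the labels and the methods of the study, the authors selected mRNA by oligo-dT capture, trimmed reads with Trim Galore, aligned with STAR against mm10 and obtained gene counts from featureCounts. The deposited values are raw counts. Strand setting, annotation release and treatment of multi-mapping reads are not given in the sources used here. No label names a column of the table: F187, F325, F331, F368, M408 and M624 appear by genotype in the supporting data of the study, and for M351, M9 and M664 the group rests on the letter M.

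Tests used edgeR 4.0.16 (quasi-likelihood) in R 4.3.3 with TMM, filterByExpr at a minimum count of 10 and no covariates. Adjusted p-values (Benjamini-Hochberg) cover every gene tested. Alternatives were DESeq2 1.42.0, voom in limma 3.58.1, other normalizations and filters, each tumor left out, the pair M624 and M664 left out, and the libraries rich in satellite reads left out. Removal of satellite genes, the alternatives over 7 tumors and the receptor-gene background were chosen after seeing the data. The code was tested on data simulated with the means, dispersions and library sizes of these 9 tumors. There the edgeR rule called 1 of 91 genes changed 2-fold and 12 of 93 changed 4-fold, and 0 unchanged genes. A gene that did not pass is thus not shown to be unchanged.

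Paralog ratios used counts + 0.5 and two-sided exact permutation tests. Positions and exon lengths came from GENCODE M21 on mm10, which matched 55111 of 55367 gene identifiers. The precision is set by total counts of 2716322 to 17073285 per tumor, and counting floors cover counting error only.

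Members, lists and tests were chosen with earlier results of these data known. Named genes were the members called, the 5 highest and 5 lowest log2 fold changes among members with a mean of at least 10 CPM, the paralogs with their parents, and genes fixed by name. Other named genes were chosen after their values were seen. Results of some genes that this rule names are not reported here.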

Additional observations from a re-analysis of the deposited data

Results flagged for a closer look

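Of 90 sets of 4 or 5 values examined for a tumor far from the rest of its group, 4 stood out, and chance alone gives about 1 in 20. Rpl11 had 41.9 CPM in M351, and the other Myc knockin tumors lay between 22.4 and 27.1 CPM. Rpl22l1 had 28.9 CPM in M664, and the other Myc knockin tumors lay between 5.58 and 8.69 CPM. Rpl3l had 7.39 CPM in F325, the tumor with the highest sum of skeletal muscle markers, and the other p53 driven tumors lay between 0.486 and 1.58 CPM. Rpl7l1 had 52 CPM in F331, and the other p53 driven tumors lay between 62.8 and 64.3 CPM.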

How the results depend on the processing

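No paired analysis was possible because the columns carry no replicate numbers. The 4 members called over 9 tumors became 54 with DESeq2, 19 with limma-voom, 17 with upper-quartile normalization, 0 with library size alone (for comparison, 61 members had an unadjusted p under 0.05 in the edgeR test with TMM), 30 where each tumor had to reach 10 counts, 55 with satellite genes removed, 60 without the 4 libraries rich in satellite reads, 2 without M624 and M664, and 38 at an adjusted p under 0.1. In the same order, with 2.26% over 9 tumors, all genes were called higher at 10.8%, 6.64%, 4.07%, 0.325%, 8.46%, 11.0%, 15.7%, 1.80% and 7.82%. Leaving out 1 tumor gave 0 to 42, against 0 to 6.03% of all genes. The median log2 fold change was 0.69 without M624 and M664, 2.09 without the satellite-rich libraries, and 1.22 to 1.67 with 1 tumor left out. Over 7 tumors the 2 calls became 14 with DESeq2, 7 with upper-quartile normalization, 0 with library size alone, 32 with satellite genes removed, and 0 to 4 with 1 tumor left out. All genes were called higher there at 1.80%, and at 6.0%, 2.78%, 0.349% and 9.03% under the first 4 of these settings. With 1 tumor left out the share was 0 to 4.46%. The median was 0.078 with library size alone, 1.20 with satellite genes removed, and 0.35 to 0.77 with 1 tumor left out. The 12 calls in the 6 lists became 37 with DESeq2, 21 with limma-voom, 19 with upper-quartile normalization, 0 with library size alone, 4 with all genes of at least 1 count, 27 where each tumor had to reach 10 counts, 4 without M624 and M664, 51 without the satellite-rich libraries, and 0 to 31 with 1 tumor left out. Over the named genes, and over all tested members for the fits without the pair or without the satellite-rich libraries, signs changed for Rpl3l (-0.12 with all genes of at least 1 count, -0.44 with library size only, -2.87 under voom and -2.13 without the satellite-rich libraries), for Rpl41 (0.075 with at least 10 counts in every tumor, 0.027 with limma-voom and 0.066 with upper-quartile normalization), for Rpl10 (-0.16), Rpl31 (-0.046), Rpl36 (-0.28), Rpl37 (0.26) and Rps28 (0.049) without the pair, and for Rpl13 (-0.41), Rpl23 (-0.26) and Rpl39 (-0.070) without the satellite-rich libraries. With 1 tumor left out, Rpl37 ranged over -0.40 to 0.063, Rpl3l over -0.70 to 1.79 and Rpl41 over -0.26 to 0.16. The difference in log2 ratio became 0.42 for Rpl3l and -0.37 for Rps27l without the pair. With 1 tumor left out it ranged over -0.54 to 0.091 for Rpl22l1, -0.020 to 0.67 for Rps27l, -0.22 to 1.32 for Rps4l, -2.94 to -0.26 for Rpl3l, 0.35 to 1.49 for Rpl39l and -0.95 to -0.51 for Rpl7l1. The causes were not tested. Settings with fewer tumors or genes differ in what was tested. Depth limits the low members: 3 counts correspond to 2.39 CPM in M9 and 0.114 CPM in M624.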
